A study of Mus musculus with 8 samples.

Results

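The Elavl and Celf genes encode RNA-binding proteins. All 10 genes of both mouse families, Elavl1 to Elavl4 and Celf1 to Celf6, were taken by name from the 51826 genes listed for each library. They were chosen by their exon, intron and whole-gene read counts in the Homo and Het libraries described below, which had pointed different ways for some of them. Their differences between genotypes are therefore given as a description and without p-values, and a count of members past a threshold is set beside the share of all genes past it only as context.

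RNA was sequenced from cells of the fetal mouse hypothalamus at embryonic day 14.5, in 8 libraries. The 4 Homo libraries (9, 10, 11 and 12) came from Ptf1a cre/cre; Ai9/+ animals and the 4 Het libraries (1, 2, 3 and 4) from Ptf1a cre/+; Ai9/+ animals, all of strain C57BL/6. Both groups carry Cre at the Ptf1a locus and the Ai9 reporter, which makes a red fluorescent protein once Cre has acted, so sorted red cells had expressed Cre from Ptf1a or descended from such cells. Dead cells were removed with propidium iodide. The labels name the groups control and knockout; whether libraries stem from separate embryos is not labelled, so p-values measure the spread between libraries, which may be technical. Het cells have lost an intact Ptf1a copy too, and no library came from animals without Cre.

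Elavl proteins, also called Hu proteins, bind U-rich stretches in introns and 3′ untranslated regions (3′UTRs), and affect splicing, stability and translation. Elavl1 (HuR) is made in most cells, while Elavl2 (HuB), Elavl3 (HuC) and Elavl4 (HuD) mark neurons soon after they leave the cell cycle. Celf proteins bind GU-rich RNA and regulate alternative splicing and decay. Celf1 and Celf2 are found in many tissues, and Celf3, Celf4, Celf5 and Celf6 mainly in the nervous system. Several Elavl proteins are known to bind messages of their own family.

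The letters that Elavl proteins are known to favour are shown for the Elavl family, since these messages are known to be bound by family members. Each line gives 30 bases of the 3′UTR around the first match to TTTNTTT, on the transcript strand, with the match in capitals and T written for U. The stretches come from GENCODE M21 transcripts on GRCm38.
Elavl1: ctcgctcatgcTTTTTTTttctttccttct
Elavl2: aagggaagacaTTTCTTTtctttttacata
Elavl3: tggtgatggctTTTGTTTcttttttcggct
Elavl4: aaaaaaagattTTTCTTTtttgtcaaaaat
They lie at chr8:4289570-4289599, chr4:91252922-91252951, chr9:22018205-22018234 and chr4:110205860-110205889, all on the minus strand. Only the transcript strand was searched, and overlapping matches were counted separately. In the first 1000 bases of the 3′UTR, Elavl1 held 16 matches, Elavl2 held 7, Elavl4 held 4 and Elavl3 held 2. Among Celf genes, Celf5 held 16, Celf1 held 7, Celf2 held 6 and Celf3 held 5, and Celf4 and Celf6 held 0 in this window. Of 9120 genes with a 3′UTR of that length, 73.8% held at least 1 match and the median was 2 matches. The GU-rich letters TGTTTGT occurred once each in Elavl1, Celf1 and Celf2, and in 21.6% of the 9120 genes. A match is a run of letters and not a shown binding site.

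The libraries held 2571054 to 3009181 exon reads in Homo and 2502387 to 2979647 in Het, and 4444597 to 5976911 intron reads in Homo and 4855731 to 6635550 in Het. Ptf1a had 0 exon reads in Homo libraries and 1 in Het libraries, so its level cannot check the genotype labels. Summed exon counts scaled to library size (CPM) of 15 neuronal markers were 9559 to 11526 in Homo and 9261 to 10818 in Het, and those of 11 hypothalamic markers were 1041 to 1468 in Homo and 945 to 1203 in Het. Both ranges overlap, though single markers were called in both directions, 3 higher and 2 lower of 15 tested neuronal genes, and 1 higher and 3 lower of 10 tested hypothalamic genes. Of all tested genes 13.1% were called in exons. After the correction for transcript GC content described below, 0 of the 15 and 1 of the 10 were called, beside 2.43% of all tested genes. Of 9 tested neural progenitor markers edgeR and DESeq2 called 0, with 1 at an unadjusted p under 0.05 in each and a median exon log2 fold change of 0.42. Among other markers, 6 mesenchyme and pericyte genes summed to 6.31 to 170 CPM in Homo and 2.67 to 14.6 CPM in Het, and 6 genes of the oligodendrocyte lineage to 115 to 139 CPM in Homo and 88.9 to 95.9 CPM in Het. The 5 hindbrain and spinal cord genes, which are Hox genes, summed to 2.81 to 5.50 CPM in Homo and 0 to 1.73 CPM in Het. Of these 5, 0 passed the low-count filter for exon reads, so their sums rest on few reads. The 5 telencephalon genes summed to 4.21 to 116 CPM in Homo and 110 to 154 CPM in Het, ranges that overlap. The sums of myeloid, endothelial and erythroid genes overlapped between genotypes too. No gene of these lists was at 0 in every library, and their part in the results below was not tested. In sorted bulk RNA, fewer cells of a type and less RNA per cell cannot be told apart.

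All 10 genes were expressed, and the order of their levels was set by single members and not by family. Levels are compared here on the deposited RPKM scale, reads per kilobase of exon scaled to library size, averaged over all 8 libraries with the SD between libraries. Elavl3, the neuronal HuC gene, had the highest mean over both genotypes, 26.8 ± 7.05 RPKM (n = 8). Celf4, a brain-enriched member whose loss causes seizures in mice, followed at 23.3 ± 5.27 RPKM, then Celf3 at 19.8 ± 8.94 RPKM and Celf5 at 16.6 ± 5.64 RPKM. A middle group held Celf6 at 11.2 ± 3.20 RPKM, Elavl4 at 10.5 ± 2.80 RPKM and Elavl1 at 10.1 ± 2.88 RPKM. The broadly expressed Celf1 and Celf2 were at 7.41 ± 1.79 and 4.69 ± 1.49 RPKM, and Elavl2 was the lowest at 3.56 ± 0.856 RPKM. This order depends on the annotated exon length, 25884 bases over 28 transcripts in Celf2 and 3995 bases over 2 in Celf4. Without division by length, Celf2 averaged 512 exon CPM in Homo and 355 in Het, above Celf4 at 393 and 274.

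Each pair of members was compared within libraries, as the difference in log2(RPKM + 0.01), with an exact two-sided sign-flip permutation test. Of 45 pairs, 37 differed at a Benjamini-Hochberg adjusted p under 0.05. The pairs ordered alike in all 8 libraries reached the smallest exact p the design allows, 0.00781 (adjusted 0.0103 over 45 pairs). Neighbours in the order that did not differ beyond their spread were Celf4 and Celf3 (exact adjusted p = 0.286, n = 8), Celf3 and Celf5 (0.193), Celf6 and Elavl4 (0.602), and Elavl4 and Elavl1 (0.602). Celf3 had the widest SD of the 10 genes, with 13.0 ± 4.55 RPKM in Homo and 26.7 ± 6.39 RPKM in Het (SD, n = 4 each). Celf3 lay below both Elavl3 and Celf4 in all 4 Homo libraries and above both in all 4 Het libraries. The pair of Celf3 and Elavl3 therefore did not differ over the 8 libraries either (exact adjusted p = 0.137). For both pairs the order reversed between genotypes, so the lack of a difference over all libraries does not mean like levels.

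Exon reads, scaled as given below, separated the genotypes for 4 members. Elavl3, Elavl4 and Celf4 were higher in every Homo library than in any Het library, and Celf3 was lower in every Homo library. Exon counts below are CPM on library sizes scaled by trimmed mean of M values (TMM), given for libraries 9, 10, 11 and 12 and then for libraries 1, 2, 3 and 4. On the deposited RPKM scale only Celf3 separated the genotypes. In unscaled exon reads Elavl3, Elavl4 and Celf3 did, while Celf4 overlapped. A log2 fold change is Homo over Het, with its standard error (SE) from edgeR.

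Elavl3 had 849, 791, 763 and 716 exon CPM in Homo libraries, against 515, 573, 578 and 475 exon CPM in Het libraries. The lowest Homo library stood above the highest Het library, and the log2 fold change was 0.54 ± 0.12. Elavl4 (HuD), known for stabilising messages of growing axons, had 247, 227, 260 and 272 exon CPM in Homo libraries, against 178, 124, 143 and 181 exon CPM in Het libraries. It showed the highest positive log2 fold change of the 10 genes, 0.69 ± 0.14, and again the groups did not overlap.

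Elavl2 (HuB) averaged 126 ± 22.4 exon CPM in Homo and 88.4 ± 23.4 exon CPM in Het (SD, n = 4 each). Its log2 fold change of 0.52 ± 0.19 was close to that of Elavl3, but its libraries overlapped and its reads were few, 2325 exon reads in all 8 libraries. Elavl1, the ubiquitous member, averaged 227 ± 18.9 exon CPM in Homo and 199.5 ± 51.9 exon CPM in Het, with overlap and a log2 fold change of 0.19 ± 0.16. A gene on the opposite strand, Ccl25, overlaps the start of Elavl1 and held 1938 reads over the 8 libraries. Whether counting used strand is not given in the sources used here, so some reads of overlapping genes may be shared.

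Celf3, a brain Celf known to regulate splicing, had 294, 284, 307 and 171 exon CPM in Homo libraries, against 546, 522, 466 and 407 exon CPM in Het libraries. Every Homo library was below every Het library, library 12 was the lowest of all, and the log2 fold change was -0.88 ± 0.17. Celf5 averaged 331 ± 58.2 exon CPM in Homo and 437 ± 54.8 exon CPM in Het, a log2 fold change of -0.40 ± 0.14 with overlap: library 9, at 413 exon CPM, stood above Het library 3 at 366. Celf3 and Celf5 were the only members with a negative exon fold change on TMM-scaled counts; the value of Celf1, close to 0, was also negative without the low-count filter (-0.08) and in 4 of the 8 fits with 1 library left out.

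Celf4 had 396, 336, 435 and 404 exon CPM in Homo libraries, against 249, 287, 292 and 268 exon CPM in Het libraries. No Homo library reached down to the Het range on this scale, and the log2 fold change was 0.52 ± 0.12. Celf2, a broad Celf with many annotated transcripts, had 613, 487, 469 and 479 exon CPM in Homo libraries, against 280, 301, 483 and 354 exon CPM in Het libraries. Het library 3 lay inside the Homo range, and the log2 fold change was 0.53 ± 0.17. Celf1 averaged 224 ± 34.1 exon CPM in Homo and 217 ± 26.8 exon CPM in Het, and Celf6 averaged 148 ± 13.4 and 135 ± 28.6 exon CPM in Homo and Het. Both overlapped between genotypes, with log2 fold changes of 0.05 ± 0.14 and 0.14 ± 0.15.

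**Figure D1:**
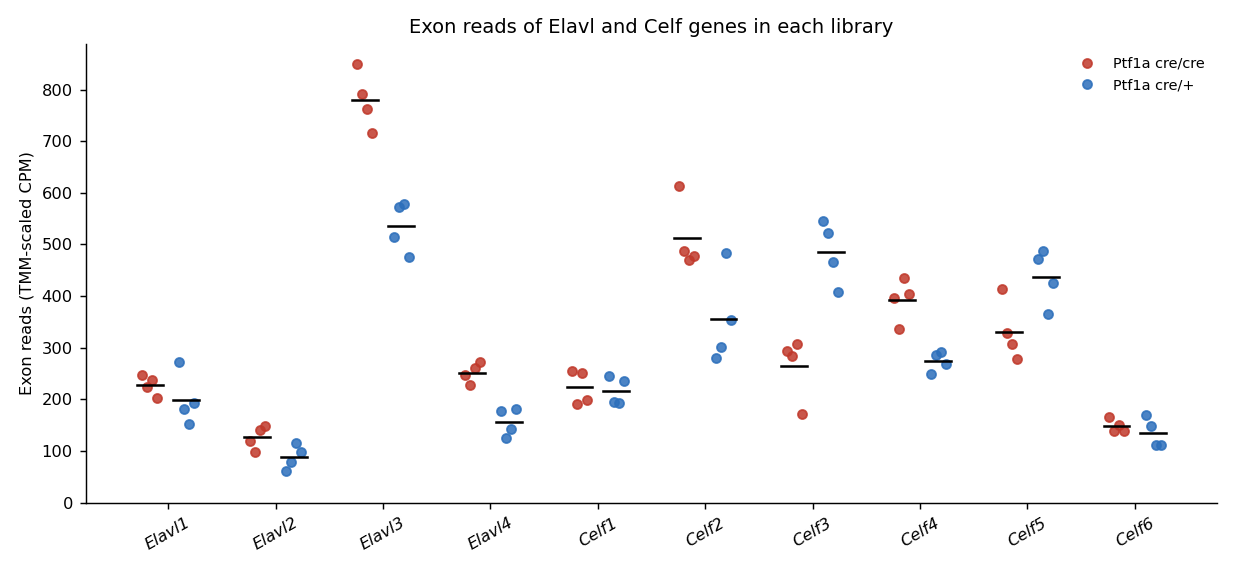
Exon reads of the 10 genes in each library, in TMM-scaled CPM on a linear axis that starts at 0, with Ptf1a cre/cre (Homo) libraries left of Ptf1a cre/+ (Het) libraries and bars at the mean of 4 libraries. Elavl3, Elavl4 and Celf4 lie higher in all 4 Homo libraries, Celf3 lies lower in all 4, and the other 6 genes overlap.

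Across all genes, exon reads gave 1603 of 12257 tested genes with an edgeR adjusted p under 0.05 (13.1%), 853 (6.96%) higher and 750 (6.12%) lower in Homo. The same threshold took in 5 of the 10 members, Elavl3, Elavl4, Celf2 and Celf4 as higher and Celf3 as lower, which restates how they were chosen. Genotypes did not overlap for 19.6% of all tested genes and for 4 members. Left out in turn, no library ended the call of Elavl3, Elavl4 or Celf3, library 11 ended that of Celf4, and Celf2 kept its call only without Het library 3, where its log2 fold change was 0.67. Celf2 also lost its call with size factors by median of ratios (log2 0.51), and Elavl3, Celf2 and Celf4 lost theirs when no low-count filter was applied and the median of all genes stood at 0.38. Celf5 gained a call as lower without that filter (-0.53), in DESeq2 (-0.42), and without Homo library 9 or Het library 3. Elavl2 gained one as higher without Het library 3. DESeq2 called 6 members among 2034 genes.

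Exon fold changes moved with the base composition of transcripts. Genes called higher in Homo had a median transcript GC content of 43.1%, genes called lower 56.7%, and the remaining tested genes 49.5%. Elavl2, Elavl4 and Celf2, at 38.5%, 38.9% and 42.1% GC, had positive fold changes, and Celf3 and Celf5, at 56.2% and 55.2% GC, had negative ones. Elavl3 departed from this order, with 54.1% GC and a positive fold change, and so did Celf6 at 58.3% GC.

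A correction of each library for transcript GC content left Elavl3 at a log2 fold change of 0.77 ± 0.11, Celf4 at 0.49 ± 0.12 and Celf6 at 0.54 ± 0.13, all 3 past the threshold. Elavl4 went to 0.14 ± 0.15, Celf2 to 0.13 ± 0.14 and Elavl2 to -0.01 ± 0.14, near no difference. Elavl1 and Celf1, near 0 before, turned to -0.06 ± 0.17 and -0.14 ± 0.14. Celf3 stayed negative at -0.56 ± 0.15 but lost its call, as did Elavl4 and Celf2, and Celf5 was at -0.12 ± 0.13. The corrected fit called 298 genes in all, 2.43% of those tested. So Elavl3 and Celf4 were higher in Homo on both scales, while the values of Elavl4, Celf2 and Elavl2 depended on the correction.

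**Figure D2:**
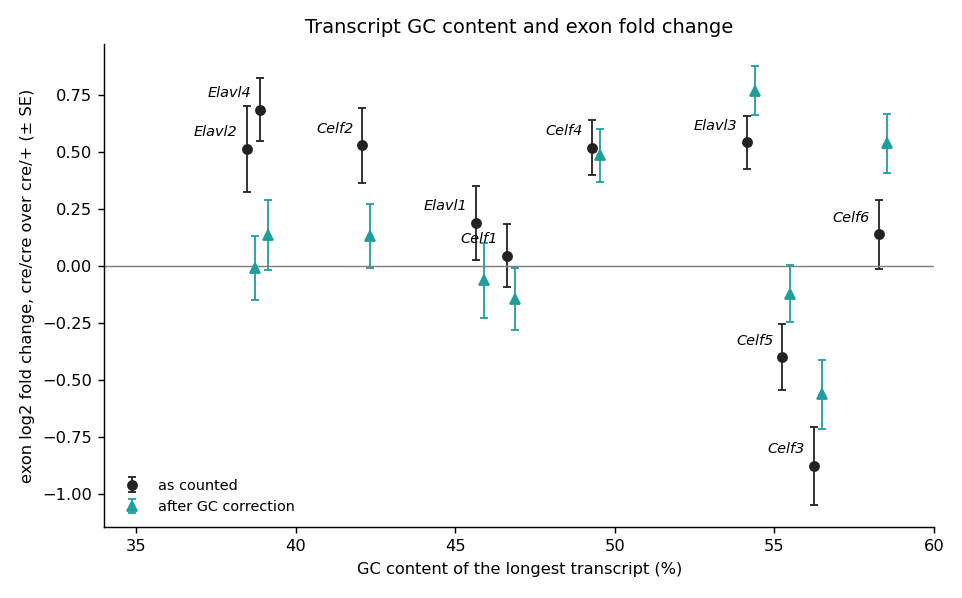
Exon log2 fold change (Homo over Het, ± SE) against the GC content of the longest transcript in percent, as counted (circles) and after the GC correction (triangles, set slightly to the right). Elavl4, Elavl2 and Celf2 at the AT-rich end move to near 0 after correction, while Elavl3 and Celf4 stay at 0.49 or above.

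Intron reads went the other way. All 10 genes had a negative intron log2 fold change on TMM-scaled intron counts, between -0.44 for Elavl4 and -1.82 for Celf3, beside a median of 0.02 over 17010 tested genes, though 6 turned positive when intron reads were scaled by exon library sizes. With TMM, exon and intron fold changes had opposite signs in 8 of the 10 genes, and only Celf3 and Celf5 were negative in both. Among the 8, the exon values of Celf1 (0.05 ± 0.14), Celf6 (0.14 ± 0.15) and Elavl1 (0.19 ± 0.16) were close to 0. When intron reads were scaled by exon library sizes, only Celf2 and Celf4 kept opposite signs. The share of all tested genes with opposite signs is not given here. With both kinds of read corrected for transcript GC content, opposite signs were found in 5 genes. The GC content of introns was not used in that correction, which moved the median intron value of all tested genes to -0.25. Intron reads largely come from transcripts that are not yet spliced, so they are commonly read beside exon reads as a proxy for young transcripts.

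Celf3 had 18.9, 15.4, 20.8 and 14.1 intron CPM in Homo libraries, against 83.7, 83.3, 43.3 and 36.1 intron CPM in Het libraries. All Homo libraries lay below all Het libraries, with a log2 fold change of -1.82 ± 0.31, so this gene was lower in both exon and intron reads. Its unscaled intron reads were 83, 134, 179 and 112 in Homo libraries, against 226, 263, 243 and 235 in Het libraries, which did not overlap either. Riiad1, on the opposite strand, overlaps the start of Celf3 and held 490 reads over the 8 libraries.

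Elavl2 had 187, 110, 119 and 155 intron CPM in Homo libraries, against 191, 195, 301 and 205 intron CPM in Het libraries. All Homo libraries lay below the Het range, but library 9 by little, and the log2 fold change was -0.64 ± 0.24. Elavl3 had 157, 83.1, 96.2 and 83.4 intron CPM in Homo libraries, against 242, 209, 173 and 108 intron CPM in Het libraries. Homo library 9 lay within the Het range, and the log2 fold change was -0.80 ± 0.29.

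Celf4 had 1243, 724, 874 and 917 intron CPM in Homo libraries, against 1881, 1696, 1989 and 1233 intron CPM in Het libraries. The groups overlapped through Homo library 9 and Het library 4, and the log2 fold change was -0.86 ± 0.28. The other members with overlapping groups had intron log2 fold changes of -0.44 ± 0.24 for Elavl4, -0.48 ± 0.26 for Elavl1, -0.57 ± 0.23 for Celf1, -0.69 ± 0.30 for Celf6, -1.34 ± 0.34 for Celf5 and -1.35 ± 0.38 for Celf2. All Homo libraries lay below all Het libraries for 2 members, Celf3 and Elavl2, and for 6.8% of all tested genes. In introns, 0.564% of all tested genes were called, 91 of the 96 as lower in Homo, and Celf3 was the only member among them. In edgeR 8 members had an unadjusted p under 0.05, all lower in Homo, beside 24.8% of all tested genes. DESeq2 called 4 members, Celf2, Celf3, Celf4 and Celf5, among 1090 genes. Without the low-count filter edgeR called 3, Celf2, Celf3 and Celf5, among 791 genes. It called 0 members with median-of-ratios size factors or exon library sizes, which called 8 and 0 genes in all. The call of Celf3 was also lost without library 10, 11, 12 or 2. Its log2 fold change stayed between -2.04 and -1.67 with any 1 library left out.

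**Figure D3:**
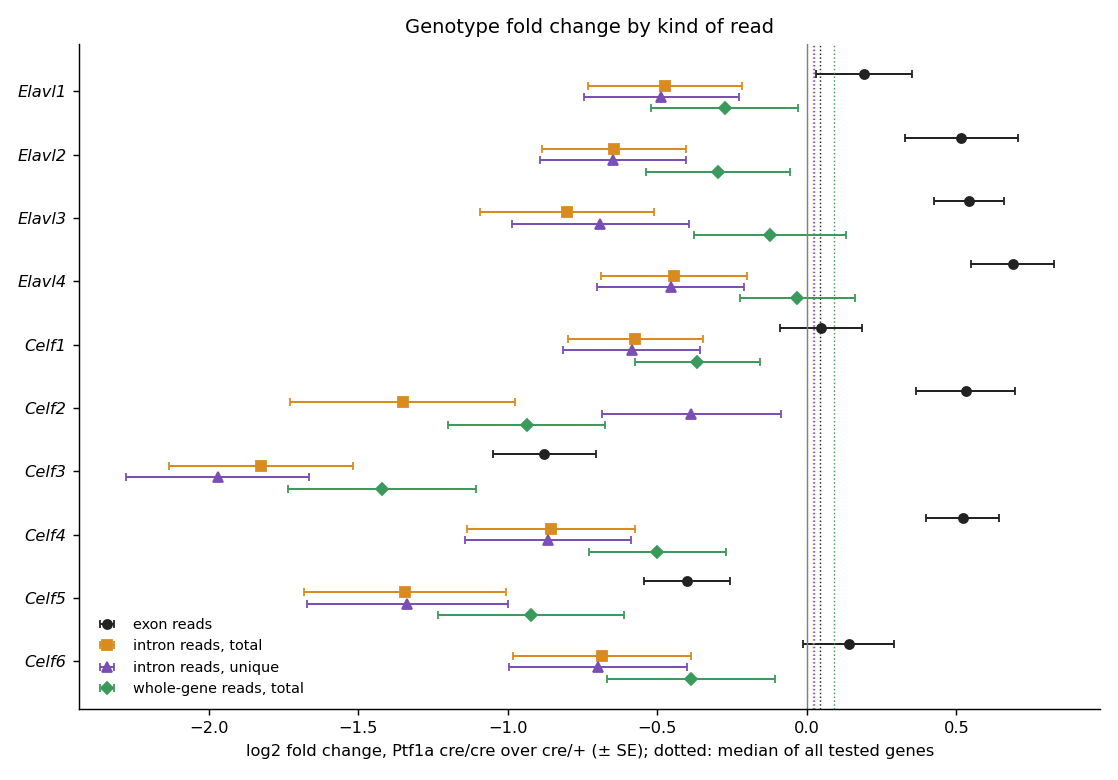
Log2 fold change of each gene (Homo over Het, ± SE) in exon reads, total intron reads, unique intron reads and whole-gene reads, with dotted lines at the median of all tested genes. Exon values are positive in 8 genes while intron values on TMM-scaled counts are negative in all 10 (in 4 when scaled by exon library sizes), and Celf2 is the gene whose total and unique intron values differ most.

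The negative intron values rest on how intron reads were scaled. TMM multiplied the intron totals by 0.986 to 1.62 in Homo and by 0.556 to 0.980 in Het, ranges that do not overlap, whereas the exon factors lay between 0.947 and 0.972 in Homo and between 0.971 and 1.04 in Het. Unscaled intron reads of Elavl3 averaged 725 ± 71.7 in Homo and 746 ± 151 in Het (SD, n = 4 each), and those of Elavl4 averaged 924 ± 96.9 in Homo and 786 ± 339 in Het. When intron reads were scaled by the exon library sizes, the log2 fold change was positive in 6 members, up to 0.40 in Elavl1, and negative in Celf2 (-0.50), Celf3 (-0.85), Celf4 (-0.09) and Celf5 (-0.44). That scaling moved the median of all tested genes to 0.81.

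Relative to the median of all genes, the 10 members lay lower in introns under each scaling and read choice that was tried. Their median was -0.74 beside 0.02 with TMM, and 0.02 beside 0.81 with the exon library sizes. Strongly read introns as a class did the same: over 5 classes of equal size, from low to high mean intron CPM, the median intron log2 fold change was 0.87, 0.53, 0.08, -0.17 and -0.29, and all 10 members belong to the highest class.

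Celf2 was the only member for which intron reads that map to more than 1 place separated the genotypes. Over the 8 libraries 57.0% of its intron reads mapped to more than 1 place, and 52.4% of those of Elavl3, compared with 14.7% in Celf3, 5.05% in Celf5 and under 1% in the other 6 genes. Multimapped intron reads of Celf2 numbered 4980, 4207, 4931 and 4618 in Homo libraries, against 11119, 13842, 9406 and 10676 in Het libraries. Each Homo library held fewer than any Het library.

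Unique intron reads of Celf2 were 5964, 6550, 6458 and 7262 in Homo libraries, against 3327, 3542, 9513 and 5544 in Het libraries. These overlapped, and with unique reads the intron log2 fold change of Celf2 was -0.39 ± 0.30 in place of -1.35 ± 0.38. The multimapped share of all intron reads also differed between libraries, from 20.6% to 31.8% in Homo and from 27.9% to 42.8% in Het. In Elavl3 the multimapped intron reads were 334, 374, 434 and 329 in Homo libraries, against 385, 332, 510 and 384 in Het libraries, so a like share of such reads went with overlapping groups. With unique reads its log2 fold change was -0.69 ± 0.30, near the value from total reads, and that of Celf3 was -1.97 ± 0.31.

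**Figure D4:**
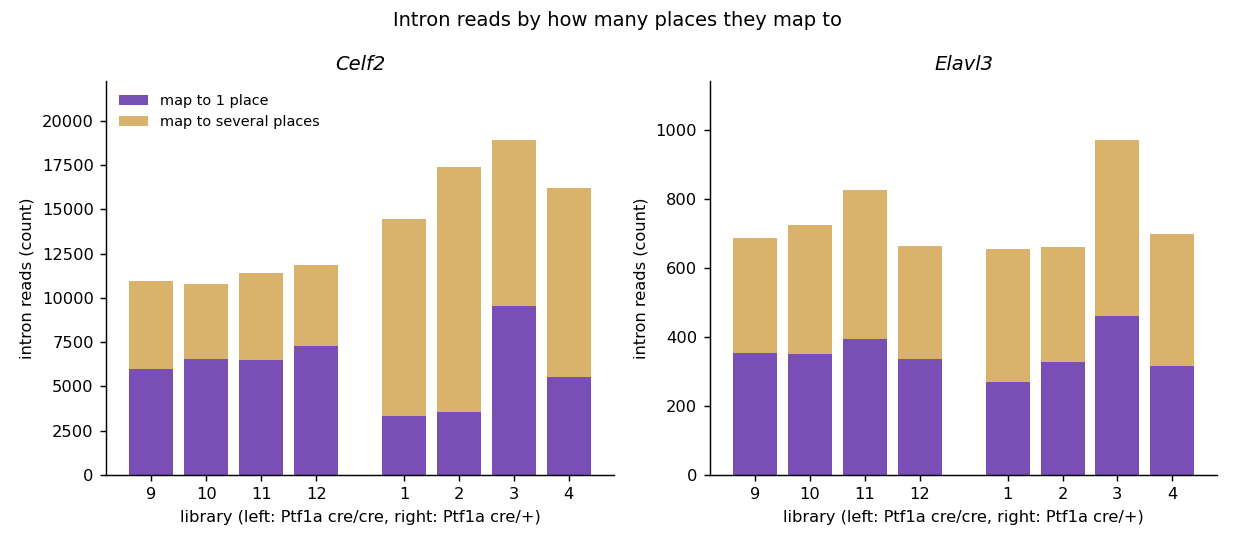
Intron reads of Celf2 and Elavl3 in each library, as counts, split into reads that map to 1 place (lower bar part) and to several places (upper bar part), with Ptf1a cre/cre (Homo) libraries 9 to 12 on the left and Ptf1a cre/+ (Het) libraries 1 to 4 on the right. For Celf2 the upper part is 4207 to 4980 reads in Homo and 9406 to 13842 in Het, while for Elavl3 both parts overlap between genotypes.

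The genes differ widely in how many of their reads come from introns, which sets how far a whole-gene count follows the intron or the exon value. Introns gave 92.3% of the reads of Celf2, whose introns span 944 kilobases, 88.6% of those of Celf4 and 77.9% of those of Elavl2. The compact genes Celf5 and Celf3, with 16.8 and 8.43 kilobases of intron, had 14.3% and 15.2%. Per kilobase of intron, unique reads were densest in Celf4, at a mean of 25.8 per library, followed by Celf3 at 18.7 and Elavl3 at 11.6, and sparsest in Elavl4 at 5.96.

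Whole-gene log2 fold changes were below 0 for all 10 members, from -0.03 ± 0.19 in Elavl4 (0.07 with median-of-ratios size factors or DESeq2) to -1.42 ± 0.31 in Celf3, beside a median of 0.09 over all tested genes. On TMM-scaled counts Celf4 was the plainest reversal, with exon CPM higher and whole-gene CPM lower in every Homo library. It had 893, 668, 807 and 818 whole-gene CPM in Homo libraries, against 1053, 1018, 1495 and 937 whole-gene CPM in Het libraries. Unscaled, the exon reads and the intron reads of Celf4 each overlapped between genotypes. Scaled by exon library sizes, its intron log2 fold change was -0.09. Celf2 showed the same opposition in its fold changes, 0.53 in exons and -0.94 ± 0.26 over the whole gene, but with unique reads its whole-gene value was -0.10 ± 0.27. With whole-gene reads edgeR called 0.0307% of tested genes and 0 of the 10 members, 3 of which had an unadjusted p under 0.05, as had 26.3% of all tested genes. DESeq2 called 2010 genes from the same counts, among them Celf2, Celf3 and Celf5 as lower.

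The exon-to-intron ratio was fitted within libraries, as the difference between the exon and the intron fold change of the same gene. It was higher in Homo for all 10 members with TMM for each kind of read, and for 6 with 1 library size for both, with TMM log2 values between 0.26 ± 0.19 in Celf1 and 1.54 ± 0.29 in Celf2, beside a median of 0.02 over 10535 tested genes. Elavl3 had 5.40, 9.42, 7.86 and 8.50 exon CPM per intron CPM (1 CPM added to each) in Homo libraries, against 2.12, 2.74, 3.33 and 4.39 in Het libraries. Its groups did not overlap, and the log2 difference was 0.99 ± 0.20.

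Celf4 had ratios of 0.319, 0.465, 0.499 and 0.441 in Homo libraries, against 0.133, 0.170, 0.147 and 0.218 in Het libraries, a log2 difference of 1.03 ± 0.19. Elavl2 had ratios of 0.644, 0.893, 1.17 and 0.952 in Homo libraries, against 0.323, 0.409, 0.383 and 0.484 in Het libraries, a log2 difference of 0.84 ± 0.19. Neither gene overlapped between genotypes in these ratios of TMM-scaled counts. Celf2, Celf3 and Celf6 did not overlap either, while Elavl1, Elavl4, Celf1 and Celf5 did.

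**Figure D5:**
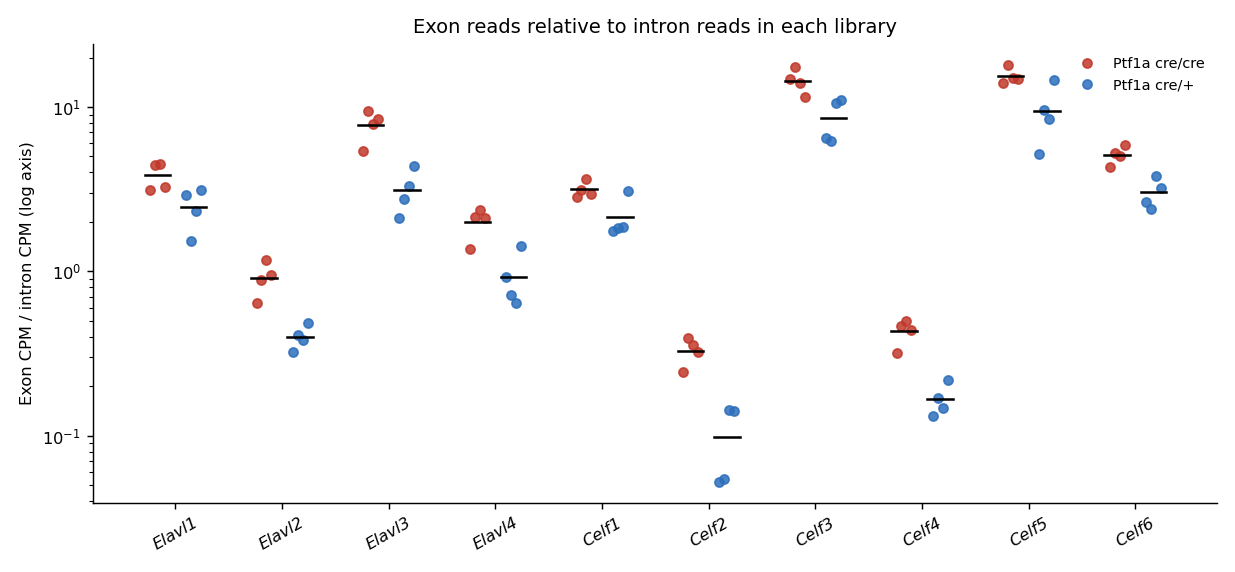
Exon CPM divided by intron CPM, with 1 CPM added to each, for every library on a log axis, with Ptf1a cre/cre (Homo) libraries left of Ptf1a cre/+ (Het) libraries and bars at the mean of 4. The ratio is higher in all 4 Homo libraries for Elavl2, Elavl3, Celf2, Celf3, Celf4 and Celf6, and the means on these TMM-scaled values are higher in Homo for all 10 genes (6 genes have a positive log2 ratio difference with 1 library size for both kinds).

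With TMM for each kind of read, all Homo libraries lay above all Het libraries for 6 of the 10 members and for 11.9% of all tested genes. The percentage of a gene's reads that came from introns needs no such scaling. It overlapped between genotypes for 9 members, and only Celf2 was lower in every Homo library. The share of all tested genes that separate by that percentage is not given here. Of all tested genes 1.97% were called for the ratio, 174 higher and 34 lower in Homo, and the members among them were Elavl2, Elavl3, Celf2 and Celf4. These calls depended on the method. Limma on log ratios called 2 of 10535 tested genes and 0 of the 10 members, at similar sizes (0.99 for Elavl3, 1.03 for Celf4). In that fit 5 members had an unadjusted p under 0.05, beside 16.7% of all tested genes. GC correction ended the call of Elavl2 (0.56 ± 0.19). With unique reads Celf2 went to a log2 difference of 0.59 ± 0.19 and was no longer called, whereas Elavl2 (0.84 ± 0.19), Elavl3 (0.95 ± 0.20) and Celf4 (1.03 ± 0.19) were, beside 1.68% of tested genes. With 1 library size for exon and intron columns the median of all genes moved to -0.47, and the members' values lay between -0.25 and 1.05, all above that median. There edgeR called 0 members, with 1 at an unadjusted p under 0.05 beside 15.6% of all tested genes, and DESeq2 was not run on the ratio.

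Single libraries decided some of these calls. That of Celf4 was lost without library 10 or 11, that of Celf2 without 10, 11 or 2, and those of Elavl2 and Elavl3 without any of 10, 11, 12, 1 and 2. The direction did not change in any member when a library was left out.

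Reads across exon-exon junctions gave another view of spliced RNA. They made up 3.55%, 3.11%, 3.70% and 4.00% of the exon reads of Elavl3 in Homo libraries, against 7.55%, 5.01%, 4.94% and 6.99% in Het libraries. In Celf4 the junction share was 11.2%, 11.7%, 13.9% and 12.6% in Homo libraries, against 15.9%, 20.3%, 14.4% and 14.9% in Het libraries. Both genes, which had more exon reads in Homo, had a lower junction share in every Homo library, and the other 8 overlapped. All Homo libraries lay below all Het libraries in junction share for 2.67% of 11809 tested genes with exon reads in every library. Over whole libraries the junction share of exon reads was 22.3% to 23.8% in Homo and 22.4% to 23.9% in Het.

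Among 45 other RNA-binding proteins of neurons, 42 were tested in exons, of which 6 rose, 2 fell and 34 did not pass the test. This stands beside 13.1% of all tested genes called in exons. Their median log2 fold change was 0.27. Syncrip, which takes part in messenger RNA transport and translation, rose by 0.80 ± 0.12 on the log2 scale (edgeR adjusted p = 0.00173). Fxr1, a relative of the fragile X protein, rose by 0.95 ± 0.22 (edgeR adjusted p = 0.0123), and Hnrnpd, which binds AU-rich elements, by 0.49 ± 0.11 (0.0105). Ptbp2, the polypyrimidine tract protein of neurons, rose by 0.54 ± 0.12 (edgeR adjusted p = 0.0107), while Ptbp1, its counterpart in progenitors, had a log2 fold change of -0.64 ± 0.18 (0.0345). Msi1, a progenitor protein, had one of -0.56 ± 0.13 (edgeR adjusted p = 0.0125), and Cpeb4 and Khdrbs1 rose by 0.54 and 0.40 (0.0210 and 0.0414).

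After the GC correction the calls of Syncrip, Fxr1, Hnrnpd and Ptbp2 were lost, with log2 fold changes of 0.18, 0.47, 0.05 and -0.17, and 1 of the 42 genes was called, Nova1, a splicing regulator of neurons, at -0.81 ± 0.12 (edgeR adjusted p = 0.00387). In introns, 41 of these genes were tested and edgeR called 0, with a median log2 fold change of -0.39. At an unadjusted p under 0.05 there were 10, of which 9 were lower, beside 24.8% of all tested genes, and DESeq2 called 1. The smallest intron p-values belonged to Msi1 (log2 -1.07 ± 0.30, edgeR adjusted p = 0.123), Msi2 (-0.75 ± 0.24, 0.144), Ptbp1 (-1.47 ± 0.50, 0.152) and Khdrbs3 (-0.76 ± 0.26, 0.157). The members' medians, 0.35 in exons and -0.74 in introns, were of the same signs.

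Of 10 messages known to be bound by neuronal Elavl proteins, 8 were tested in exons and edgeR called 0, with a median log2 fold change of 0.13, 1 gene at an unadjusted p under 0.05 and 0 called by DESeq2. After the GC correction 1 was called, Nova1, which is in both lists. Gap43, the growth cone protein, was at 0.27 ± 0.13 (edgeR adjusted p = 0.174), Marcks at 0.24 ± 0.11 (0.164), Mycn at -0.30 ± 0.17 (0.257) and Ache, acetylcholinesterase, at -0.94 ± 0.50 (0.226). In introns 9 were tested and edgeR called 0, with a median of -0.36, 1 gene at an unadjusted p under 0.05 and 0 called by DESeq2. Among them were Gap43 at -0.36 ± 0.27 (edgeR adjusted p = 0.370), Nova1 at -0.75 ± 0.31 (0.184), Cdkn1a at 1.20 ± 0.74 (0.295) and Bdnf at 0.61 ± 0.41 (0.329).

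The genes whose exon log2 CPM varied most like that of Elavl3 over the 8 libraries, among 9610 genes, included Rcan2 and Kcnk2 (Pearson r = 0.98 for both). The least alike were Zfp574, Nphp4 (both -0.96) and Zfp768 (-0.95). The 8 points span both genotypes, which do not overlap for Elavl3, so these values largely carry the genotype difference and are given as a description.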

How the data were processed

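Each of the 8 libraries was deposited by the authors as a table of read counts per Ensembl gene, with total and unique reads over exons, introns, exon-exon junctions and the whole gene. RPKM and TPM values in the same tables were computed by the authors, and the RPKM were built from total exon reads. Genome builds GRCm38 and mm10 come from the submitters' processing notes; the aligner, counter and strand setting, not given in the sources used here, can change counts of overlapping genes. Per the labels' protocols, 10 ng of RNA went into each library, made with a stranded kit for total RNA and read as pairs of 36 bases.

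Groups follow the genotype labels. Exon, intron and whole-gene counts were each fitted in edgeR 4.0.16 (R 4.3.3) with filterByExpr, TMM and the quasi-likelihood F test, Benjamini-Hochberg adjusted over all tested genes, with calls at an adjusted p under 0.05. The exon-to-intron ratio was an interaction over 16 columns with library as a block. SE is the size of the log2 fold change divided by the square root of F. DESeq2 1.42.0 and limma 3.58.1 served as alternatives. GC correction used the GC content of the longest transcript for exon and intron reads alike, known for 99.8% of tested genes. Fits were tested on simulated data.

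The members and lists were chosen with earlier results of these data known. Named beside the members are, per list, up to 4 genes with the smallest exon p and up to 4 with the smallest intron p, and the 3 genes most and 3 least like the member of highest RPKM, of which 1 is not reported here. Other genes named among counts were picked after their values were seen. Motifs were searched in GENCODE M21 transcripts.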

Additional observations from a re-analysis of the deposited data

Results flagged for a closer look

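Among 80 sets of 4 libraries of a genotype (10 genes and 4 measures), 5 held a library far from the other 3 by Dixon's criterion, where chance gives about 1 in 20. Celf2 had 613 exon CPM in Homo library 9, with 469 to 487 in the other Homo libraries. Celf3 had 171 exon CPM in Homo library 12, with 284 to 307 in the other Homo libraries. Elavl2 had 301 intron CPM in Het library 3, with 191 to 205 in the other Het libraries. Introns gave 9.60% of the reads of Celf5 in Homo library 9, and 15.6% to 16.6% in the other Homo libraries. Junction reads were 5.33% of the exon reads of Elavl4 in Homo library 12, and 8.35% to 8.87% in the other Homo libraries.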

How the results depend on the processing

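Counts of called genes depended on the processing. The exon count of 1603 became 298 after GC correction and lay between 734 and 2077 with 1 library left out. The intron count of 96 became 8 with median-of-ratios size factors, 791 without the low-count filter, 1090 in DESeq2 and 0 when scaled by exon library sizes, where edgeR left 3352 genes at an unadjusted p under 0.05; with 1 library left out it lay between 0 and 2199. With unique intron reads it was 73, and in fits leaving out 1 library, chosen after seeing the data, 510 without library 9, 0 without 10 or 12, 5 without 11, 10 without 2 and 2274 without 4. The whole-gene count of 6 became 257 without the filter, 2010 in DESeq2 and 14 with unique reads, and 0 to 1404 with 1 library left out. The ratio count of 208 became 652 without the filter, 2 with limma and 14 with 1 library size, and 39 to 335 with 1 library left out. The 37 differing pairs were 37 with TPM and 35 to 38 with 1 library left out. Signs turned for Ptbp2 and Marcks exons after GC correction (-0.17 and -0.045) and for Msi2, Khdrbs3 and Gap43 introns scaled by exon library sizes (0.021, 0.11 and 0.28). Of the member values under alternatives, 556 moved by less than their spread and 44 by more; the cause was not tested. The common coefficient of variation between libraries was 0.262 for exons and 0.426 for introns. Without molecular identifiers, reads are not independent molecules. No paired analysis was possible because the genotypes share no library number.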
